A study of Mus musculus with 2 samples.

Results

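Mir193a, Mir193b, Mir365-1 and Mir365-2 are microRNA genes that form a pair of duplicated clusters in the mouse, each holding 1 gene of the miR-193 family and 1 gene of the miR-365 family. They were taken by their GENCODE M21 symbols and are 4 of the 2202 microRNA genes counted. Small RNA came from hippocampus of female B6CASTF1/J mice aged 14 days, the first-generation cross of C57BL/6J and CAST/EiJ. The labels call the tissue a layer of hippocampus without naming the layer, and they name no treatment and no altered allele. They give 1 group of 2 biological replicates, each labelled with 3 females, so a library stands for a pool of animals and no contrast between conditions exists. Each pool had 1 library, so pool and library preparation cannot be told apart.

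A microRNA is cut from the hairpin of a longer primary transcript, and the 5′ and 3′ arms of the hairpin can each give a short mature product. The mature product guides Argonaute proteins to messenger RNAs, mainly by pairing of its seed, bases 2 to 8, and lowers their translation or stability. Genes that lie close together on 1 strand are often cut from 1 primary transcript. Outside the brain, the Mir193b and Mir365-1 cluster is known for its expression in brown fat and for work on brown fat and muscle differentiation.

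The mature products are shown because the seeds define the families and because shared bases decide which gene a read can be assigned to. All 4 genes matched RefSeq entries on GRCm38.p6, and the seed is in capitals.
mmu-miR-193a-3p: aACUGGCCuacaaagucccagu
mmu-miR-193b-3p: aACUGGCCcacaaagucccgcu
mmu-miR-365-3p: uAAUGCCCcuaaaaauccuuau
mmu-miR-193a-5p: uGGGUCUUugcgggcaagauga
mmu-miR-193b-5p: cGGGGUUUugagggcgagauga
mmu-miR-365-1-5p: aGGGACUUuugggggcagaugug
mmu-miR-365-2-5p: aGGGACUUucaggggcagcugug

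The 3′ products of Mir193a and Mir193b had the same seed and were identical at 19 of 22 bases. They differed by U9C, A20G and G21C, counted from the 5′ end with the miR-193a base first. Their 5′ products had different seeds and were identical at 17 of 22 bases. The Mir365 genes share a single 3′ product, miR-365-3p, with all 22 bases the same. Their 5′ products had the same seed and differed at 3 of 23 bases, by U10C, G11A and A19C with the miR-365-1-5p base first. Among 1738 mature entries of the RefSeq table, 0 entries of other genes had the seed of any of these products.

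The precursors follow, with the mature products in capitals, because the bases around miR-365-3p limit how reads of the Mir365 genes can be placed.
Mir193a: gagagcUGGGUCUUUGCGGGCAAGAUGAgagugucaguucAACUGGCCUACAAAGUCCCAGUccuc
Mir365-2: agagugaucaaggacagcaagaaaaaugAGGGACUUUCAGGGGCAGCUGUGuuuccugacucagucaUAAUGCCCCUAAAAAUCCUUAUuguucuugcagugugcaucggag
Mir193b: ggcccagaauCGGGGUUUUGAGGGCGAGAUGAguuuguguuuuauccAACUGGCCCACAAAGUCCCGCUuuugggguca
Mir365-1: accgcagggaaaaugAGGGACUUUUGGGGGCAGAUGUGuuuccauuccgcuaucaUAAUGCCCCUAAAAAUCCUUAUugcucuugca

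The longest run shared by the Mir365 precursors was 27 bases, ucauaaugccccuaaaaauccuuauug. It holds all of miR-365-3p, with 3 bases before it and 2 bases after it. A read made of these bases alone matches both loci, and the deposited tables count a multi-mapping read in no gene. The counts of Mir365-1 and Mir365-2 therefore cover only reads placed at 1 locus, and the total of miR-365-3p cannot be read from them. By 22-base windows, 6 of 91 in Mir365-2 and 6 of 66 in Mir365-1 occurred in the other gene, and 0 of 45 in Mir193a and 0 of 58 in Mir193b occurred in any other microRNA gene. The longest run shared by Mir193a and Mir193b was 10 bases. A read with exactly the bases of miR-365-3p is in neither Mir365 count. For all other reads the tables do not separate the arms, so the product behind a count is not known.

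**Figure D1:**
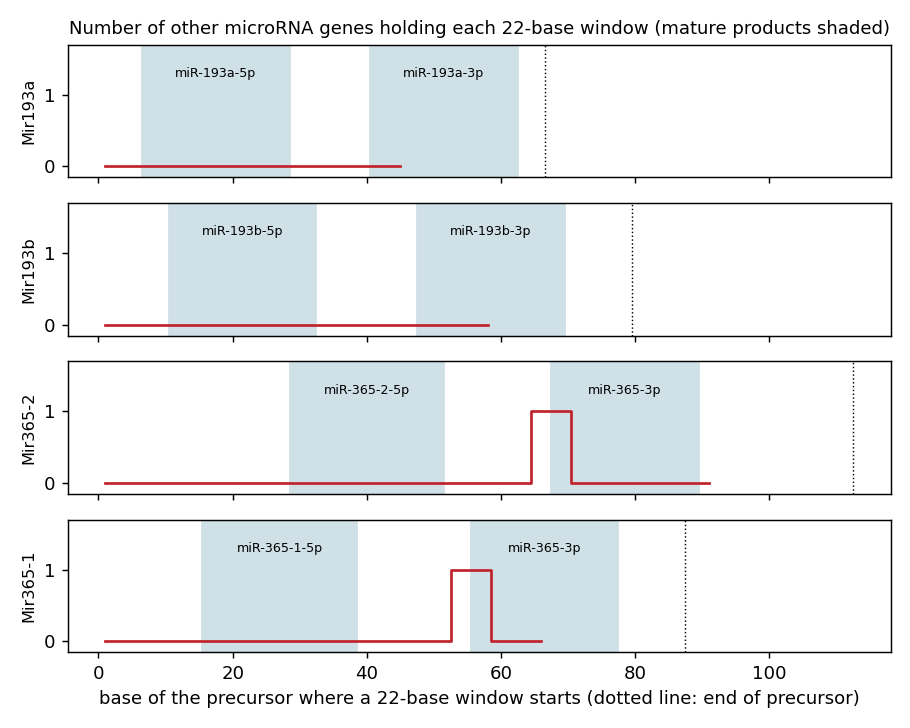
The x axis is the base of each precursor where a 22-base window starts, the y axis (red line) is the number of other microRNA genes that hold the window, and blue shading marks the mature products. The line rises to 1 only around the start of miR-365-3p in the Mir365 genes and stays at 0 in Mir193a and Mir193b.

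In GRCm38, Mir193a (ENSMUSG00000065395.1) lies on the plus strand of chromosome 11 at 79711969 to 79712034, and Mir365-2 (ENSMUSG00000065489.1) follows on the same strand at 79726400 to 79726511. The gap between them is 14365 bases, and no annotated gene overlaps either, so both are intergenic. The nearest protein-coding gene to each is Rab11fip4, 13945 bases from Mir193a. Mir193b (ENSMUSG00000076972.2) lies on the plus strand of chromosome 16 at 13449523 to 13449601, and Mir365-1 (ENSMUSG00000065449.1) at 13453840 to 13453926, with a gap of 4238 bases. Both lie opposite the antisense RNA gene Gm15738 on the minus strand, outside its exons, and the nearest protein-coding gene is Mrtfb. Mir6365, on the minus strand, was the only other microRNA gene within 50 kb of any of the 4 and had 0 counts in both libraries. The minus strand across the 4 genes also gave 0 counts in both libraries.

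By assigned counts, Mir193b was the highest of the 4 genes and Mir193a was next. The assigned counts of the Mir365 genes were close to the limit of these libraries. The counts of the Mir365 genes leave out reads that match both loci. This order therefore does not show that the Mir365 genes gave less mature product. Mir193b had 441 counts in replicate 1 and 243 in replicate 2, which is 92.6 and 85.2 CPM (counts scaled to the reads assigned to microRNA genes). Mir193a had 67 and 111 counts, or 14.1 and 38.9 CPM. Mir193b was thus at a similar level in both pools, while the higher level of Mir193a was in replicate 2 and still lay below either level of Mir193b.

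Mir365-2 had 9 counts in replicate 1 and 10 in replicate 2, or 1.89 and 3.51 CPM. Mir365-1 had 10 and 8 counts, or 2.10 and 2.80 CPM. The exact Clopper-Pearson 95% intervals in replicate 1 were 0.864 to 3.59 CPM for Mir365-2 and 1.01 to 3.86 for Mir365-1. The order of these genes was thus not detectable from these counts. Only Mir193a and Mir193b passed a minimum of 10 counts in both libraries, which 409 of the 2202 genes passed.

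The mean level was 88.9 ± 5.2 CPM (SD, n = 2) for Mir193b, 26.5 ± 17.6 for Mir193a, 2.70 ± 1.14 for Mir365-2 and 2.45 ± 0.499 for Mir365-1. Among the 2202 genes, Mir193b ranked 213 in replicate 1 and 218 in replicate 2, close to the middle of the detected genes, whose median level was 109 CPM. Mir193a ranked 311 in replicate 1 and 249 in replicate 2. Precursors differ in length, from 66 bases in Mir193a to 112 in Mir365-2. The labels give the libraries a size range below 30 bases, so a read covers only part of a precursor. Counts need not grow with precursor length, and the scale by length is a description only. Per 100 bases of precursor, the level was 112 ± 6.59 CPM for Mir193b, 40.1 ± 26.6 for Mir193a, 2.82 ± 0.574 for Mir365-1 and 2.41 ± 1.02 for Mir365-2, so the order of the Mir365 genes turned on this scale. The levels of the Mir365 genes overlapped on both scales. All 4 genes together held 527 of 4764797 assigned counts in replicate 1 and 372 of 2852269 in replicate 2, or 0.0111% and 0.0130%.

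**Figure D2:**
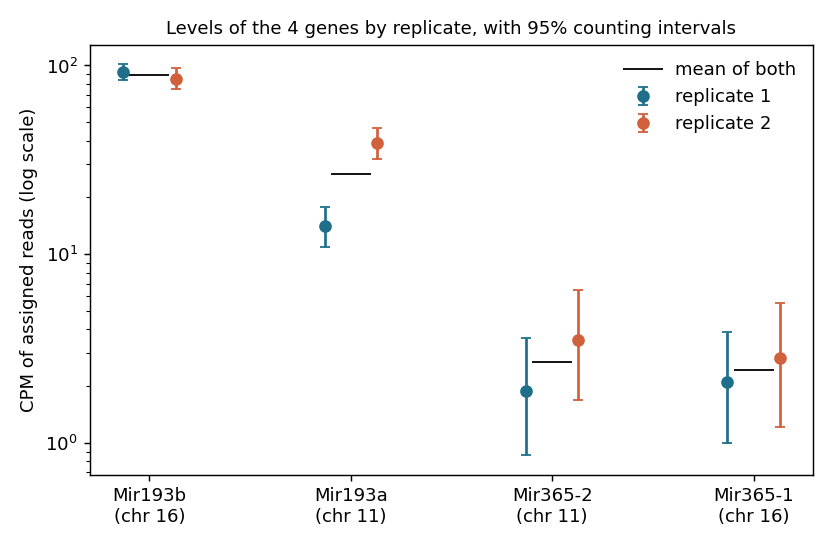
The y axis is CPM on a log scale for each gene, with a point per replicate, bars for the exact 95% counting interval and a black line at the mean of both replicates. Mir193b lies at 92.6 and 85.2 CPM, Mir193a at 14.1 and 38.9, and the Mir365 genes lie at 3.51 CPM or lower with wide bars.

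Within each cluster the miR-193 gene held most of the assigned counts. On chromosome 16, Mir193b had 44.1 counts for each count of Mir365-1 in replicate 1 (exact 95% interval 23.8 to 92.6) and 30.4 in replicate 2 (15.2 to 71.2). On chromosome 11, Mir193a had 7.44 counts for each count of Mir365-2 in replicate 1 (3.70 to 17.0) and 11.1 in replicate 2 (5.81 to 23.8). These ratios of counts overlapped between the replicates in both clusters. In replicate 1 the intervals of the clusters did not overlap, and in replicate 2 they did. Each ratio leaves out reads shared by the Mir365 genes, so it is not a ratio of the mature products. Unequal neighbours were common among 119 other pairs of microRNA genes within 20 kb. Of those pairs, 53 (44.5%) had a larger gap in mean level than Mir193a and Mir365-2. A larger gap than that of Mir193b and Mir365-1 was found in 17 (14.3%).

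The balance between Mir193a and Mir193b differed between the libraries beyond counting error. Such differences were common: of 450 genes tested between the libraries, 64.9% passed and 22% were past 2-fold. The shift in balance restates the difference of Mir193a between the libraries given below and is not a separate result. Mir193a held 13.2% (10.4 to 16.4) of the counts of Mir193a and Mir193b in replicate 1 and 31.4% (26.6 to 36.5) in replicate 2, and these intervals did not overlap. The chromosome 11 cluster held 14.4% (11.5 to 17.7) of the counts of all 4 genes in replicate 1 and 32.5% (27.8 to 37.5) in replicate 2. The Mir365 genes had at most 10 counts each in a library, so this share mostly repeats that of Mir193a and Mir193b. Mir365-2 held 47.4% (24.4 to 71.1) of the counts of the Mir365 genes in replicate 1 and 55.6% (30.8 to 78.5) in replicate 2, and these intervals overlapped over most of their length. A share within a library does not depend on the scaling of the library.

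**Figure D3:**
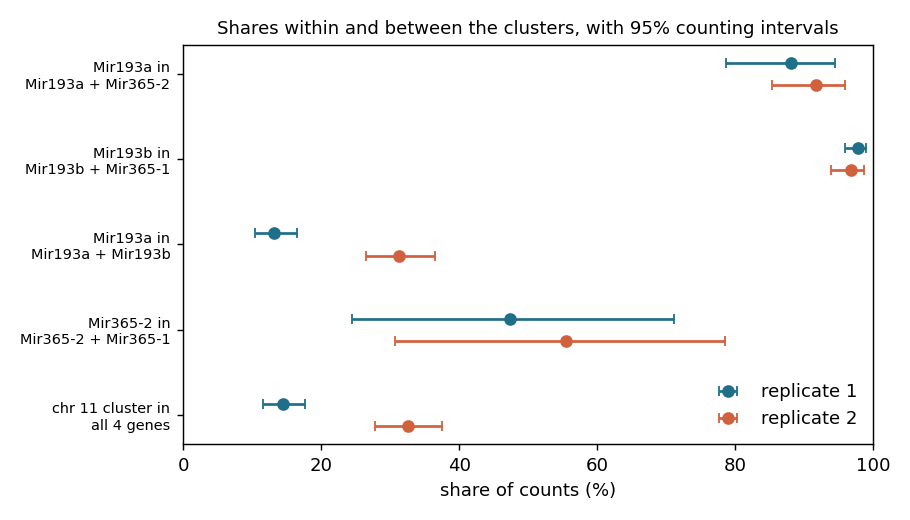
The x axis is a share of counts in percent, with a point per replicate and bars for the exact 95% counting interval, for each pair of genes and for the chromosome 11 cluster. The replicates separate for Mir193a against Mir193b (13.2% and 31.4%) and for the chromosome 11 cluster (14.4% and 32.5%), and overlap in the other rows.

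Between the pools, Mir193a was higher in replicate 2 and Mir193b did not pass the test. The log2 ratio of replicate 2 to replicate 1, after TMM scaling, was 1.59 for Mir193a (95% counting interval 1.14 to 2.05), with an adjusted p of 1.3e-12 by a two-sided exact binomial test, Benjamini-Hochberg adjusted over 450 genes. For Mir193b it was 0.00 (-0.23 to 0.23), with an adjusted p of 1 by the same exact test. Of the 450 genes tested 64.9% passed in either direction, 32.9% higher and 32% lower in replicate 2, so a call is common in these libraries. The share that passed was 37.9% of 788 genes with no filter on low counts and 87.5% of the 273 genes whose counts summed to 200 or more. The test compares these 2 libraries for counting error only, and with 1 library per pool it has no replicate check.

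By size, 46 of the 450 genes (10.2%) had a larger absolute log2 ratio than Mir193a, and 448 had a larger one than Mir193b. The median absolute log2 ratio was 0.51. A ratio past 2-fold, which Mir193a reached, was found in 22% of the genes tested. Neither Mir365 gene reached the summed count of 20 that the test required. The log2 ratio was 1.01 (-0.44 to 2.49) for Mir365-2, the neighbour of Mir193a, and 0.54 (-1.0 to 2.03) for Mir365-1, the neighbour of Mir193b. Both intervals held 0, and both also overlapped the interval of Mir193a, so these counts did not show whether Mir365-2 moved with Mir193a.

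**Figure D4:**
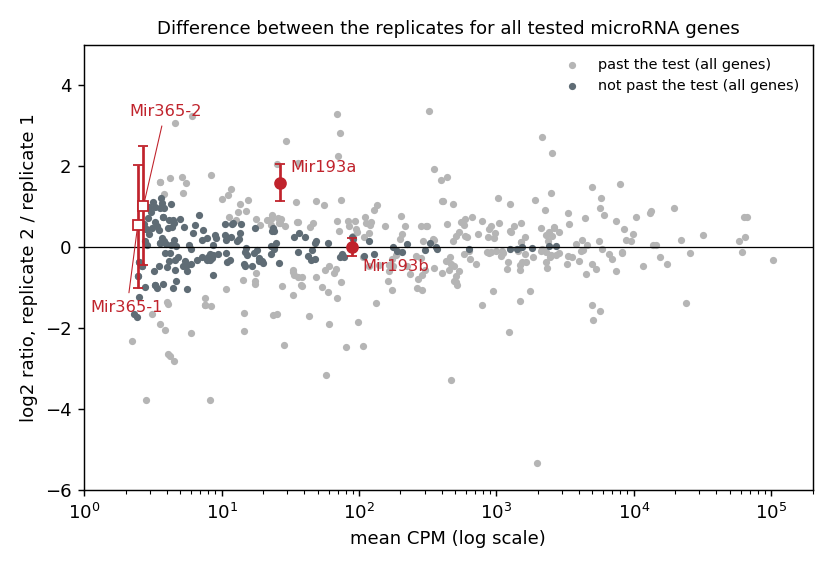
The x axis is mean CPM on a log scale and the y axis the log2 ratio of replicate 2 to replicate 1, with a grey point for each of 450 tested genes and the 4 genes in red with 95% counting intervals (open squares for the untested Mir365 genes). Mir193a lies at 1.59 and Mir193b at 0.00, and the bars of the Mir365 genes cross 0.

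Lists of microRNAs linked to other cell types also held genes that differed between the pools. The part of these lists in the difference of Mir193a was not tested. Each tally below stands against 64.9% that passed over all 450 genes tested. Of the 273 genes whose counts summed to 200 or more, 87.5% passed. A call in a list is thus common and does not mark a cell type as different. Counted means any count in either library. In bulk tissue, fewer cells of a type and less RNA per cell cannot be told apart. The epithelial list (the Mir200, Mir183 and related genes) summed to 173 CPM in replicate 1 and 543 in replicate 2, with 10 of 10 genes counted, and 7 of 9 tested genes higher in replicate 2 and 1 lower. The choroid plexus and ciliated cell list summed to 3951 and 1189 CPM, with 6 of 7 genes counted, Mir449b at 0, and 4 of 5 tested genes lower in replicate 2. The red blood cell list, with 3 genes found in the tables and all counted, summed to 290.0 and 722 CPM. In that list only Mir451a was higher in replicate 2, at 217 and 663 CPM, while Mir144 and Mir486 did not pass, and the median log2 ratio was -0.17. The muscle list summed to 77.9 and 47.7 CPM, with 6 of 9 genes counted and Mir133a-1, Mir133a-2 and Mir1a-1 at 0. In any of these lists, a gene at 0 can still have reads that match several loci, which are counted in no gene. The 2 tested genes of the muscle list went opposite ways, Mir206 lower in replicate 2 (74.1 and 34.4 CPM) and Mir499 higher (5 and 23 counts).

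The astrocyte-associated list, which includes Mir193b itself, summed to 1784 and 1913 CPM with 5 of 5 genes counted, 4 of them higher in replicate 2 and 1, Mir193b, not past the test. Those 4 are all Mir29 genes, so they are 1 family, and they count again among the duplicated clusters below. Mir29a, at 1495 and 1514 CPM, made up most of the sum. The oligodendrocyte list summed to 1929 and 3198 CPM with 4 of 4 counted, and 2 of 3 tested genes were higher and 0 lower. Its higher sum in replicate 2 came mainly from Mir219a-2 (1247 and 2583 CPM), while Mir338 (664 and 590 CPM) did not pass. The immune list summed to 2471 and 1888 CPM with 7 of 7 counted, and 4 of 7 tested genes were lower and 0 higher. The blood vessel list summed to 15962 and 20349 CPM with 3 of 5 counted and Mir126b and Mir145b at 0. Its higher sum in replicate 2 came from Mir126a (log2 ratio 0.88), while Mir143 (-0.67) and Mir145a (-0.46) were lower. For the labelled tissue, 18 of 18 neuron-enriched genes had any count, and they summed to 27820 and 29557 CPM. Only 15 of the 18 passed the detection minimum in both libraries. Those below it were Mir9-2 (9 and 4 counts), Mir124a-2 (2 and 1) and Mir124a-3 (0 and 1). Reads that match several loci are counted in no gene, so these low counts do not show absence. The neuronal genes went both ways, with 8 of 15 tested genes higher in replicate 2, 5 lower and log2 ratios from -2.06 for Mir218-1 to 1.94 for Mir129-1.

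The genes whose levels in the 2 libraries were most like those of Mir193b were Mir136, Mir3093 and Mir218-2, by Euclidean distance in log2(CPM + 1). Mir136, an imprinted microRNA gene on chromosome 12, was nearest at a distance of 0.15, with 88.6 and 93.6 CPM. For Mir193a the nearest genes were Gm23935, Mir3085 and Mir103-2, at distances of 0.39, 0.55 and 0.56. Gm23935 had 10.5 CPM in replicate 1 and 40.3 in replicate 2, and Mir3085 had 17.8 and 28.4. Gm23935, Mir103-2 and Mir218-2 each have a run of 20 or more bases found in a microRNA gene elsewhere, so their counts are uncertain, and Mir136 overlaps Mir3071. Likeness over 2 libraries mostly reflects a similar level.

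MicroRNAs linked to brown fat differentiation, a setting in which this family has been studied, were set beside the 4 genes. Of 21 listed genes 16 passed the minimum of 10 counts, and of 16 tested 5 were higher in replicate 2, 8 lower and 3 did not pass. Over all 450 genes tested 64.9% passed, and 87.5% did of the 273 whose counts summed to 200 or more. The median log2 ratio of the brown fat list was -0.08, against 0.01 over all 450 genes tested. The most abundant were Mir328 at 4298 ± 377 CPM, Mir93 at 4136 ± 462 and Mir378a at 3974 ± 876 (SD, n = 2). Mir378a, which lies within Ppargc1b, the gene of a transcriptional coactivator, has such a shared run and overlaps Gm25301, so its count is uncertain. The Mir133 genes, repressors of brown fat identity, had 1 count between them in replicate 1, from Mir133b, and 0 in replicate 2. Reads that match more than 1 of these genes are counted in none, so low counts do not show absence.

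Other clusters that exist in more than 1 copy, those of Mir23, Mir29, Mir15 and Mir181, hold 20 genes, of which 12 had a higher mean CPM than Mir193b and 8 a lower one. Mir193a lay above 1 of the 20, Mir29b-1, and the Mir365 genes lay above 0. Reads that match both copies of a duplicate are counted in neither, so duplicated genes can rank too low. This order is one of assigned counts and not of mature products. All 20 genes passed the minimum of 10 counts, and they summed to 39875 CPM in replicate 1 and 34197 in replicate 2. Of these 20 genes 12 were higher in replicate 2, 7 were lower and 1 did not pass, with log2 ratios from -1.19 to 1.16 and a median of 0.26. A call was common in all genes tested (64.9% of 450, and 87.5% of 273 whose counts summed to 200 or more). The ratio of Mir193a, 1.59, lay outside the range of these 20 genes and that of Mir193b inside it. Mir23b at 15481 ± 2760 CPM, Mir23a at 6945 ± 1376 and Mir181b-2 at 3373 ± 733 (SD, n = 2) led this list, and all 3 have a run of 20 or more bases found in their duplicate, so their counts are uncertain.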

How the data were processed

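Each library has 1 table of raw counts of reads per microRNA gene, deposited by the authors on mm10 with GENCODE M21, per the text deposited with the counts. The aligner and counter were not given in the sources used here. Replicate 1 had 13195465 reads and replicate 2 had 7838361, of which 36.1% and 36.4% were assigned to genes, and 40.8% and 37.1% were multi-mapping. Of the 3 count columns, the strand column with the larger gene total was used as sense. Lines for unassigned reads stayed out of library sizes.

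CPM, means and SDs were computed from the sense counts. Log2 ratios used TMM sizes from edgeR 4.0.16 (R 4.3.3) on the 450 genes whose counts summed to 20 or more. Each gene had a two-sided exact binomial test, Benjamini-Hochberg adjusted, with a threshold of 0.05. Shares and levels have exact Clopper-Pearson intervals at 95%. Amplified reads without molecular identifiers are not independent molecules, so intervals cover counting error only. The labels call the libraries biological replicates, and their counts differed beyond sampling noise. Sequences and windows came from RefSeq (GRCm38.p6) and GENCODE. The test of ratios was run first on simulated counts with counting error only, which does not cover spread between libraries. Python 3.11.15 with scipy 1.17.1 was used.

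Genes named were the 4 members, the 3 genes nearest in level to each tested member, microRNA genes within 50 kb, genes sharing a seed, and the 3 most abundant detected genes of the brown fat and duplicated cluster lists. The Mir133 genes, Ppargc1b and the single genes of the cell type lists were named outside this rule. The members and lists were chosen with earlier results of these data known. Alternatives were other scalings (DESeq2 1.42.0 size factors, assigned totals), filters, unstranded counts, denominators, detection minimums and leaving out each replicate. Signal tracks and alignments were not used here.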

Additional observations from a re-analysis of the deposited data

How the results depend on the processing

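The higher level of Mir193a in replicate 2 passed the exact binomial test under all 4 alternatives that gave a value, with log2 ratios from 1.47 to 1.60 and adjusted p from 7.7e-13 to 5.3e-11. A summed count of at least 200 left Mir193a and the Mir365 genes out. The ratio of Mir193b, 0.00, did not pass under any alternative (adjusted p 0.378 to 1 by the same exact test), and its sign turned with DESeq2 size factors (-0.0049), with assigned totals (-0.12, a shift of -0.12 for every gene) and with no filter (-0.069). With no filter the adjusted p was 0.307 for Mir365-2 and 0.686 for Mir365-1. The number of genes called, 292 of 450 (64.9%), ranged from 239 of 273 (87.5%) at a summed count of at least 200 to 299 of 788 (37.9%) with no filter. With all reads as denominator the levels became 32.2 CPM for Mir193b, 9.62 for Mir193a, 0.979 for Mir365-2 and 0.889 for Mir365-1. Mir193b became 94.9 CPM with unstranded counts and 99.2 without the most abundant gene in the denominator. With a minimum of 1 or of 5 counts, 4 of the genes were detected in place of 2. Each replicate taken alone gave 14.1 to 38.9 CPM for Mir193a, 85.2 to 92.6 for Mir193b, 1.89 to 3.51 for Mir365-2 and 2.10 to 2.80 for Mir365-1, and 13.2% to 31.4% for the share of Mir193a. Unstranded counts changed no share. No paired analysis was possible because there is only 1 group. The Mir365 genes had at most 10 counts in a library, and these counts leave out reads that match both loci.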
